A study of Mus musculus with 6 samples.

Results

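Glycogen synthesis and breakdown genes were examined in AML12 cells, a line of mouse hepatocytes kept in culture, as the rows of the gene count table whose symbol was Gys1, Gbe1, Pygb, Pygl, Ugp2, Gyg, Ppp1r3b, Ppp1r3c or Gsk3b. All 9 symbols were found, each on 1 row, among 54532 rows in all. The genes that build the polymer, Ugp2, Gyg, Gys1 and Gbe1, and the phosphorylase gene Pygb, whose product breaks it down, were 2.28-fold to 3.30-fold higher in cells labelled PP than in cells labelled PA/OA. Of the 9 genes, 7 had enough counts to be tested, and the other two, Pygl and Ppp1r3c, were close to 0 in all libraries.

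Glycogen is the branched store of glucose in liver and muscle. Glucose 1-phosphate is joined to UTP by UDP-glucose pyrophosphorylase (Ugp2), the protein primer glycogenin (Gyg) starts a chain, glycogen synthase (Gys1 outside the liver, Gys2 in liver) lengthens it, and the branching enzyme (Gbe1) adds side chains. Glycogen phosphorylase, made from Pygl in liver, Pygb in brain and many other tissues and Pygm in muscle, releases glucose 1-phosphate again. Subunits such as those of Ppp1r3b and Ppp1r3c bring protein phosphatase 1 to glycogen, where it activates the synthase and inactivates the phosphorylase, while glycogen synthase kinase 3 beta (Gsk3b) inactivates the synthase.

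RNA sequencing gave 6 libraries of wild-type (WT) AML12 cells after 24 h, 3 labelled PP and 3 labelled PA/OA. The dose of PP was 250 µg/ml, and that of the modelling reagent PA/OA 400 nM and 800 nM in the submitters' units. The series title names peptides of Camellia oleifera meal, but the abbreviation PP is not spelled out, and whether PA/OA was also present in the PP medium is not stated clearly; presence of PP and absence of PA/OA cannot be told apart here. No untreated group was among the 6 libraries, so every rise or fall named here is PP relative to PA/OA. All groups were 1 cell line, and the labels do not say if replicates were separate cultures, so the p-values reflect a spread among libraries that could be technical.

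Total counts ran from 27418502 to 32560589 in the PP libraries and from 24113169 to 26825673 in the PA/OA libraries. The factors that TMM, edgeR's scaling for library composition, gave the libraries ran from 0.849 to 0.867 in PP and from 1.155 to 1.171 in PA/OA. Levels are given as CPM, the usual depth-scaled counts, with the library total multiplied by this factor. Genes of the mitochondrial genome took 1.65% to 1.70% of counts in PP and 1.83% to 2.12% in PA/OA. The cell type label was only partly met by hepatocyte markers: of 18, Krt8 and Krt18 were abundant and Hnf4a, Apob and Alb were present, but Tat had no count in any library and the liver enzyme genes Cps1, Ass1 and Cyp2e1 had 11 counts or fewer in each. Of 6 cholangiocyte markers, Krt19, Krt7, Sox9 and Spp1 were present and all 4 were higher in PP, with a summed level of 4053 to 4496 CPM in PP and 2429 to 2554 CPM in PA/OA, while Epcam and Cftr had no count. In bulk RNA, more cells of a type and more RNA per cell cannot be told apart, and the part of these markers in the results on glycogen genes was not tested. The 5 macrophage markers summed to 26.6 to 29.5 CPM in PP and 3.13 to 3.79 CPM in PA/OA. Cd68, which was higher in PP, made up most of this sum, with means of 27.3 CPM in PP and 2.78 CPM in PA/OA. Csf1r was not called (log2 fold change -0.17, adjusted p = 0.797, edgeR), Ptprc had too few counts to be tested, and Adgre1 and Clec4f had no count. The endothelial, stellate and muscle lists summed to 5.32 CPM or less in every library.

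Which glycogen genes differed between the PP group and the model group was the first question. All 7 tested glycogen genes were higher in PP at an adjusted p under 0.05 (quasi-likelihood test of edgeR, Benjamini-Hochberg over the 15718 genes tested), and none was lower. Over all genes 35.1% were called higher, 39.9% lower and 75.0% in either direction. Among the 9122 genes whose average log2 CPM reached 3, a range that holds the 7 glycogen genes, 50.8% were called higher. The values of the PP libraries lay above those of the PA/OA libraries for all 7 and below them for none (36.1% and 41.4% of all genes), and 5 of the 7 were more than 2-fold higher (12.1% of all genes). The median log2 fold change of the 7 was 1.55, against -0.09 over all genes tested. This last median and the 12.1% cover genes of all levels, also those of low counts. With a lowess trend of fold change with abundance removed, the 7 ran from -0.08 for Gsk3b to 1.37 for Pygb. The median of all genes was then 0.01. With so many genes called, a call alone sets no glycogen gene apart from the rest.

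**Figure D1:**
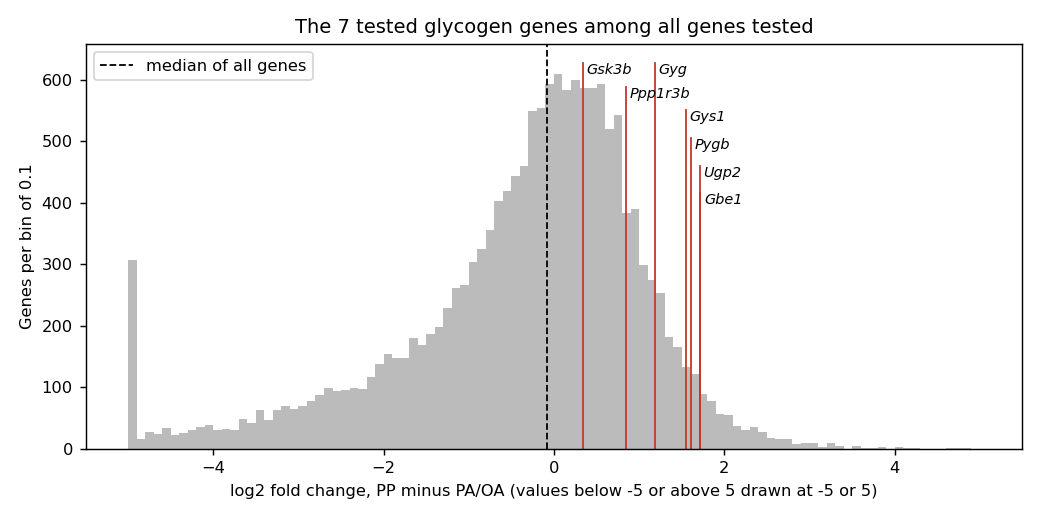
The grey histogram gives the log2 fold change, PP minus PA/OA, of all 15718 genes tested in bins of 0.1, red lines mark the 7 tested glycogen genes and the dashed line marks the median of all genes, -0.09. Ugp2, Gbe1, Pygb and Gys1 lie between 1.55 and 1.72, Gyg and Ppp1r3b below them, and Gsk3b, at 0.34, lies in the bulk of all genes.

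Ugp2 makes UDP-glucose, the glucose donor of the synthase (chromosome 11, 21321138 to 21371201, build mm10, minus strand). It had 318, 342 and 340 CPM in PP replicates 1 to 3, against 98.3, 115 and 91.0 CPM in PA/OA replicates 1 to 3. Every PP library was well above every PA/OA library. The log2 fold change was 1.72 ± 0.07 (SE; adjusted p = 1.94e-15, edgeR), a 3.29-fold difference. Of its 3069 exonic bases, 78 are shared with the opposite-strand transcript Gm12043, which had 22 counts in PP and 7 in PA/OA over the 3 libraries.

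Gyg codes for glycogenin, which attaches the first glucose units to itself (chromosome 3, 20122084 to 20155317, minus strand). It had 71.5, 75.5 and 80.3 CPM in PP, against 32.2, 36.0 and 31.7 CPM in PA/OA. The groups did not overlap, and the difference was the smallest among the 4 genes of synthesis. Its log2 fold change was 1.19 ± 0.07 (adjusted p = 3.24e-12, edgeR).

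Gys1 codes for the glycogen synthase of muscle and most other tissues (chromosome 7, 45434844 to 45456619, plus strand). It had 458, 493 and 439 CPM in PP and 172, 144 and 158 CPM in PA/OA. The lowest PP library held more than 2 times the level of the highest PA/OA library. The log2 fold change was 1.55 ± 0.06 (adjusted p = 3.23e-15, edgeR). Ruvbl2, on the other strand, shares 310 of the 4789 exonic bases of Gys1, and no use of strand in counting is given in the sources used here. Ruvbl2 itself had 10243 counts over the PP libraries and 11613 over the PA/OA libraries. Gys2, the liver synthase gene, had no count in any of the 6 libraries, where a floor of 3 counts over a group corresponds to 0.038 CPM in PP and 0.0336 CPM in PA/OA. Of counts per kilobase in the synthase pair, Gys1 thus took 100% in every library.

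Gbe1 codes for the branching enzyme (chromosome 16, 70313949 to 70569716, plus strand). It had 181, 197 and 190 CPM in PP, against 60.1, 59.8 and 52.3 CPM in PA/OA. No PP library came near the PA/OA range. The log2 fold change was 1.72 ± 0.06 (adjusted p = 4.86e-16 by edgeR, the smallest of the 7 tested), and no annotated gene overlaps Gbe1. The log2 fold changes of Gbe1 and Ugp2 were the same to 2 decimals.

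**Figure D2:**
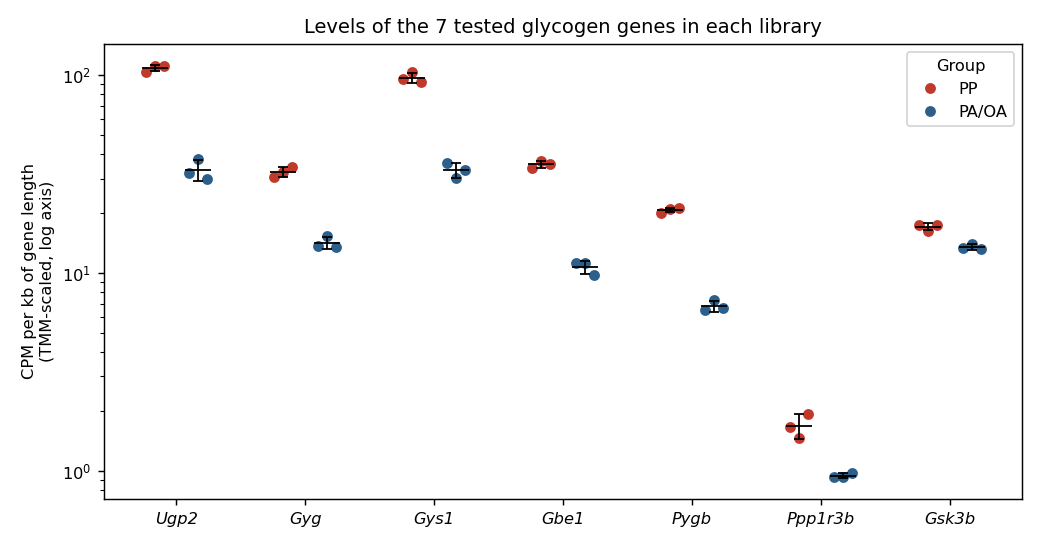
Points give the level of each tested gene in each library, in TMM-scaled CPM per kilobase of gene length on a log axis, with PP in red and PA/OA in blue, and black bars give the mean and SD of 3 libraries. For all 7 genes the PP points lie above the PA/OA points, and the gap is narrow for Gsk3b, with means of 17.1 in PP and 13.5 in PA/OA.

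Since the synthesis genes and Pygb moved together, their promoters are shown, from 250 bases before to 50 bases after the transcription start, as RefSeq gives them for GRCm38.p6, the assembly behind mm10. That of Ppp1r3c, which was close to 0 and not tested for a change, is also shown. Capitals mark CACGTG, the E-box that several basic helix-loop-helix factors bind, and ACGTG and GCGTG, the core of the sites of hypoxia-inducible factors, on either strand.
Ugp2 (chr11:21371218-21371517, - strand): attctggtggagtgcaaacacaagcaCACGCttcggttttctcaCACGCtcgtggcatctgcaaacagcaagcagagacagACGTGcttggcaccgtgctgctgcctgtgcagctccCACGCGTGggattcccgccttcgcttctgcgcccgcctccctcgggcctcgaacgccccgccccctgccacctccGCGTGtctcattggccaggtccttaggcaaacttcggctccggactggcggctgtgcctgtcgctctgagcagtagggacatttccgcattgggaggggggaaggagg
Gyg (chr3:20155067-20155366, - strand): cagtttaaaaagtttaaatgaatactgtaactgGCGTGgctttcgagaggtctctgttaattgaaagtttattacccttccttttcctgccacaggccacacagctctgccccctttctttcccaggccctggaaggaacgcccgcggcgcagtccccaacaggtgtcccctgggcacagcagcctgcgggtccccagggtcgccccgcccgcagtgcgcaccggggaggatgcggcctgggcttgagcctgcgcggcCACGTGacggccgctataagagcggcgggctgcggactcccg
Gys1 (chr7:45434589-45434888, + strand): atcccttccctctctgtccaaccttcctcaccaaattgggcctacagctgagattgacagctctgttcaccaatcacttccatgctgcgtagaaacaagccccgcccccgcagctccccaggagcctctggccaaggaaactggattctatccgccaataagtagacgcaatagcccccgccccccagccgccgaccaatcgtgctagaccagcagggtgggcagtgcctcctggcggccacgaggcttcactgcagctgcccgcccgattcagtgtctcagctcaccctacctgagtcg
Gbe1 (chr16:70313699-70313998, + strand): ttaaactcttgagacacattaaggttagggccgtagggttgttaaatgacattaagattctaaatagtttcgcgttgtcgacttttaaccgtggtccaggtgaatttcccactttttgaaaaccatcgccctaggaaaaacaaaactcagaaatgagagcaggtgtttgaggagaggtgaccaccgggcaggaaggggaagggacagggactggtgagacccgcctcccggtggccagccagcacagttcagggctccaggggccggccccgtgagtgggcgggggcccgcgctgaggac
Pygb (chr2:150786546-150786845, + strand): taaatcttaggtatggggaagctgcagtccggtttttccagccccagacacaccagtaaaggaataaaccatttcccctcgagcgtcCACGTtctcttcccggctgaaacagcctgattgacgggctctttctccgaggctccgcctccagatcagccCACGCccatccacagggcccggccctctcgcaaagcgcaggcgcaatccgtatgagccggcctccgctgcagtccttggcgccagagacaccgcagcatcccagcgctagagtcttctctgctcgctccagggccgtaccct
Ppp1r3c (chr19:36736555-36736854, - strand): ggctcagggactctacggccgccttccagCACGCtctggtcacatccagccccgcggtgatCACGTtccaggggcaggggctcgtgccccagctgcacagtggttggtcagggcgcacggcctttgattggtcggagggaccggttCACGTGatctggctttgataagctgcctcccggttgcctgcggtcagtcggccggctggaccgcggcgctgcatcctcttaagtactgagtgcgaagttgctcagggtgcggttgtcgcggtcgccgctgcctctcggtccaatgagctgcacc
A window was found for 8 of the 9 genes (9 windows, with 2 for Ugp2, of which the outer one is printed); Ppp1r3b had none. CACGTG stood in 2 of the 9 windows, those of Gyg, 9 bases past the start, and Ppp1r3c, 104 bases before it, and in 7.15% of all 32851 windows of the table. ACGTG, which lies within CACGTG, stood in 5 (Pygb, Pygl, Ugp2, Gyg and Ppp1r3c; 19.6% of all windows) and GCGTG in 6 (the same 5 and Gsk3b; 32.4% of all windows). The outer Ugp2 window held 5 matches of GCGTG, while the inner Ugp2 window held no match of any of these motifs. The windows of Gys1 and Gbe1 held none of these motifs, and those of Gyg and Ppp1r3c held all of them. Whether any of these motifs goes with the change in level was not tested. A match is a run of letters and not a shown binding site, and factor binding was not measured.

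Among the genes of breakdown, Pygb codes for the brain form of glycogen phosphorylase (chromosome 2, 150786735 to 150831758, plus strand). It had 97.0, 101 and 103 CPM in PP and 31.2, 35.1 and 31.9 CPM in PA/OA. The groups were far apart beside their spread, and the log2 fold change was 1.61 ± 0.07 (adjusted p = 4.19e-15, edgeR). No annotated gene overlaps Pygb. Pygl, the liver form (chromosome 12, 70190811 to 70231488, minus strand), had 6 counts in PP replicate 1 and 0 in each of the other 5 libraries. It was not tested, and no direction can be read from 6 counts in 1 library (exact 95% Poisson interval of the PP sum 2.20 to 13.1, for counting error only). Low counts in this table were even more often than odd (57.1% to 61.5% of values from 1 to 20), and what 1 count stands for is not given.

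Pygm, the muscle form of phosphorylase, went the other way. It had 13, 17 and 16 counts in PP, against 73, 68 and 67 counts in PA/OA, and its log2 fold change was -1.99 ± 0.33 (adjusted p = 1.48e-05, edgeR; -1.23 with the trend removed). Of counts per kilobase over the 3 phosphorylase genes, Pygb took 99.1% ± 0.0868 in PP and 90.4% ± 0.736 in PA/OA (SD, n = 3 libraries each), and Pygm took 0.860% ± 0.0389 in PP and 9.63% ± 0.736 in PA/OA. These shares do not depend on the scaling of libraries. The difference of 8.71 percentage points in the share of Pygb had p = 0.1 by the exact two-sided permutation test, the smallest p that 3 against 3 libraries allow, and an adjusted p of 0.143 over the 10 shares computed.

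**Figure D3:**
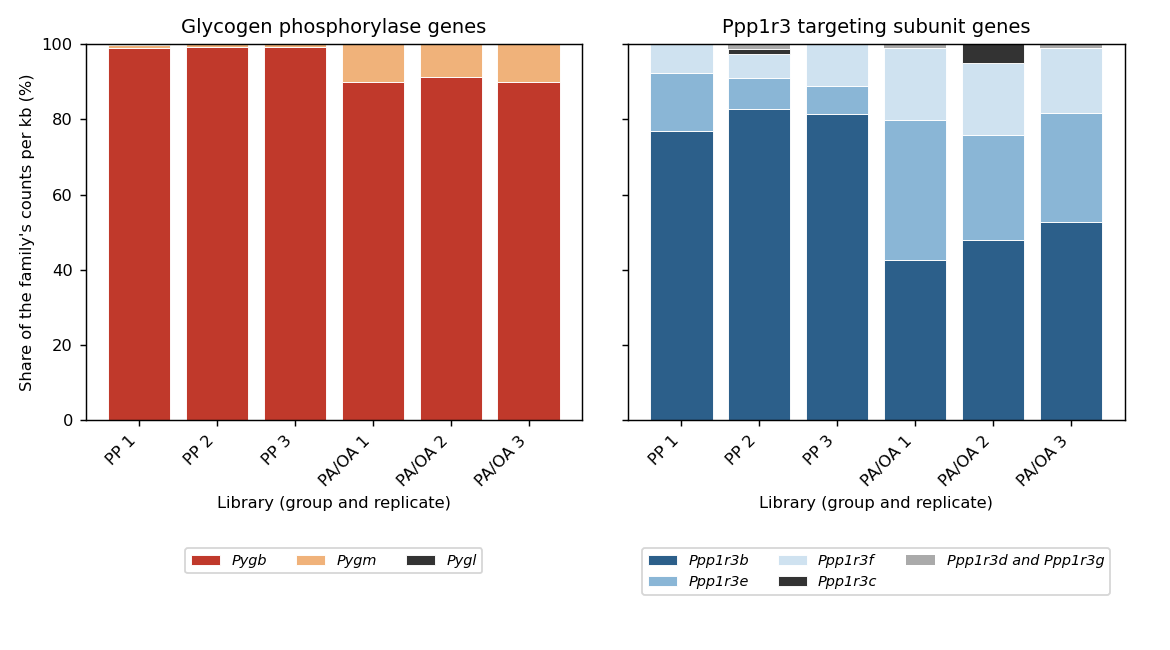
Bars give, for each library, the share of counts per kilobase that each gene took of its family, for the phosphorylase genes and for the Ppp1r3 targeting subunit genes, with PP libraries left of PA/OA libraries. Pygb held 99.0% to 99.2% in PP and 89.9% to 91.2% in PA/OA, and Ppp1r3b 76.9% to 82.8% in PP and 42.6% to 52.6% in PA/OA.

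Of the other glycogen genes, Gaa, the acid alpha-glucosidase of lysosomes, rose by 1.32 ± 0.06 (adjusted p = 4.19e-15, edgeR; 0.86 with the trend removed) and Stbd1, which codes for a glycogen-binding protein of autophagy, by 1.19 ± 0.09 (adjusted p = 5.89e-11, edgeR; 0.76 with library size only).

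Of the regulators, Ppp1r3b codes for the liver-enriched subunit that ties protein phosphatase 1 to glycogen (chromosome 8, 35375739 to 35388139, plus strand). It had 10.4, 9.16 and 12.1 CPM in PP and 5.80, 5.76 and 6.07 CPM in PA/OA. The PP libraries were more scattered than the PA/OA libraries but did not overlap them. The log2 fold change was 0.84 ± 0.15 (adjusted p = 3.44e-05, edgeR), or 0.41 (adjusted p = 0.0204, edgeR) with library size only. Ppp1r3c (chromosome 19, 36731737 to 36736653, minus strand), the subunit gene known for its high expression in muscle and liver, had 0, 2 and 0 counts in PP and 0, 8 and 0 counts in PA/OA. Both counts fell in replicate 2 of their group, and Ppp1r3c was not tested.

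Within the subunit gene family, Ppp1r3b took a larger share in every PP library than in any PA/OA library. Its relatives Ppp1r3e and Ppp1r3f, with 64 counts or fewer in any library for the first and 68 for the second, had log2 fold changes of -1.55 ± 0.42 (adjusted p = 0.00216, edgeR) and -1.02 ± 0.36 (adjusted p = 0.0135, edgeR). The call of Ppp1r3f was lost without PP replicate 2 (-0.75, adjusted p = 0.0701, edgeR) and without PA/OA replicate 1, and neither of these 2 calls held once the lowess trend with abundance was removed (-0.63 and -0.30). Gm36995 shares 46.9% of the exonic bases of Ppp1r3f, so the counts of Ppp1r3f are uncertain. Ppp1r3a had no count, and Ppp1r3d and Ppp1r3g had 2 counts or fewer in each library. Ppp1r3b took 80.4% ± 3.08 of the family's counts per kilobase in PP and 47.7% ± 4.98 in PA/OA (SD, n = 3 libraries each; difference 32.8 percentage points, exact permutation p = 0.1, adjusted p = 0.143). Of the catalytic subunit genes, Ppp1cb and Ppp1cc rose by 0.45 and 0.40, calls that were lost with library size only (0.02 and -0.03) and with the trend removed (-0.07 and 0.01). Ppp1ca stood at 0.08 (adjusted p = 0.236, edgeR) and was called lower with library size only (-0.36), upper-quartile scaling (-0.16) and the trend removed (-0.49), and higher without PA/OA replicate 3 (0.13, adjusted p = 0.0478, edgeR).

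Gsk3b (chromosome 16, 38089001 to 38246084, plus strand) had 171, 160 and 173 CPM in PP, against 131, 138 and 129 CPM in PA/OA. The groups did not overlap, but the gap was small. Its log2 fold change was 0.34 ± 0.06 (adjusted p = 1.06e-05, edgeR). The direction rested on the scaling: it was 0.10 (adjusted p = 0.0984, edgeR) with upper-quartile scaling, -0.10 (adjusted p = 0.124) with library size only and -0.08 (adjusted p = 0.201) with the trend with abundance removed. Its paralogue Gsk3a rose by 1.06 ± 0.07 (adjusted p = 4.26e-12, edgeR; 0.63 with library size only), and Gsk3b took 36.5% ± 1.44 of the counts per kilobase of the pair in PP and 48.7% ± 2.39 in PA/OA (SD, n = 3 libraries each; exact permutation p = 0.1, adjusted p = 0.143). The antisense gene 9130221H12Rik shares 28.3% of the exonic bases of Gsk3a and had 332 counts in PP and 100 in PA/OA, so the counts of Gsk3a are uncertain.

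**Figure D4:**
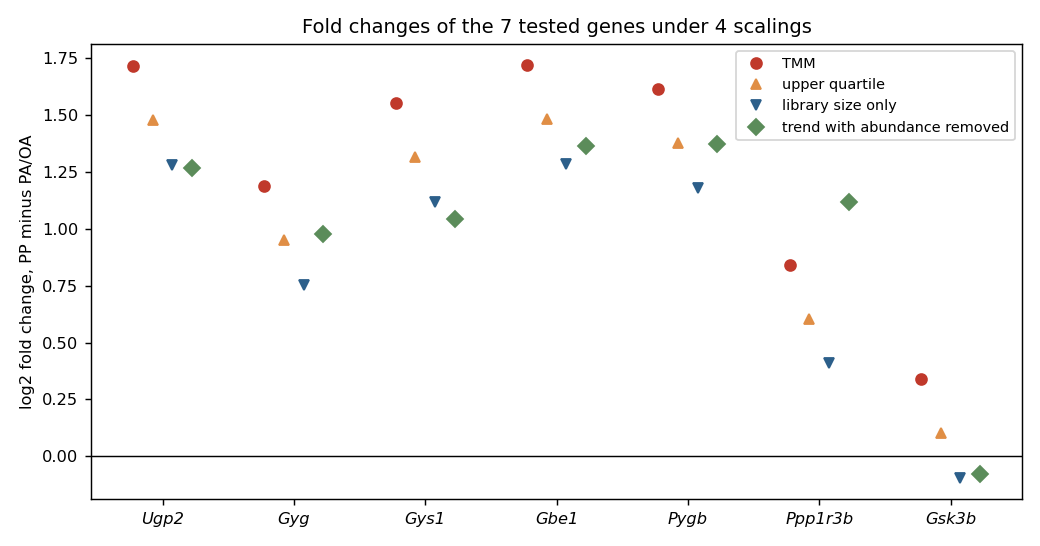
Symbols give the log2 fold change, PP minus PA/OA, of each tested gene with TMM scaling, upper-quartile scaling, library size only and the lowess trend with abundance removed. Ugp2, Gyg, Gys1, Gbe1, Pygb and Ppp1r3b lie above 0 under all 4, and Gsk3b lies at 0.34 and 0.10 under the first pair and at -0.10 and -0.08 under the others.

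The scaling moved all genes together. Relative to TMM, the median of all genes tested was lower by 0.44 on the log2 scale with library size only and by 0.24 with upper-quartile scaling, and the share of calls that were higher in PP was 26.6% and 35.6% there, against 46.8% with TMM. Under these scalings and with the trend removed, 6 of the 7 glycogen genes remained called higher and none was called lower. Over the alternatives that kept all libraries, the log2 fold change ran from 1.04 to 1.57 for Gys1, from 1.29 to 1.73 for Gbe1, from 1.18 to 1.63 for Pygb, from 1.27 to 1.73 for Ugp2 and from 0.75 to 1.20 for Gyg. Leaving out any 1 library kept all 7 calls, with log2 fold changes between 0.32 and 1.82.

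Levels can be set side by side only per length. In PP, the order by TMM-scaled CPM per kilobase was Ugp2 (108.6 ± 4.24), Gys1 (96.8 ± 5.72), Gbe1 (35.4 ± 1.51), Gyg (32.3 ± 1.89), Pygb (20.8 ± 0.576), Gsk3b (17.1 ± 0.688) and Ppp1r3b (1.70 ± 0.240). In PA/OA it was Ugp2 (33.0 ± 3.99), Gys1 (33.0 ± 3.00), Gyg (14.2 ± 1.00), Gsk3b (13.5 ± 0.458), Gbe1 (10.7 ± 0.832), Pygb (6.81 ± 0.436) and Ppp1r3b (0.946 ± 0.0273), all SD with n = 3 libraries. The libraries of Gbe1 and Gyg overlapped in PP, and those of Ugp2 and Gys1, and of Gyg and Gsk3b, overlapped in PA/OA; the other neighbours did not. Gbe1 thus stood above Gyg and Gsk3b in PP but below both in PA/OA. Per length, Ugp2 was higher than 96.95% of tested genes in PP and 91.9% in PA/OA, and Ppp1r3b higher than 38.2% in PP and 23.8% in PA/OA. Pygl and Ppp1r3c stood at the foot of the table in both groups.

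Of 34 other genes of glycogen metabolism and its control, 27 were tested, 14 were higher, 7 lower and 6 not past the test, with a median log2 fold change of 0.26. The background is 35.1% higher and 39.9% lower over all genes, and the split turned with the scaling, to 8 higher and 13 lower with library size only, 12 and 12 with upper-quartile scaling and 10 and 10 with the trend removed. The smallest adjusted p of the list was that of the phosphoglucomutase gene on chromosome 4 (99929414 to 99987294), whose enzyme interconverts glucose 1-phosphate and glucose 6-phosphate. The table names this row Pgm2 and the row on chromosome 5 Pgm1, while RefSeq (GRCm38.p6) gives the 2 loci the opposite names. The chromosome 4 gene had 356 ± 20.8 CPM in PP and 96.0 ± 4.85 CPM in PA/OA, which is 1.89 ± 0.06 on the log2 scale (adjusted p = 3.42e-17, edgeR), and the chromosome 5 gene rose by 1.20 ± 0.07 (adjusted p = 2.93e-13, edgeR; 0.76 with library size only). Itgb3bp, on the other strand, shares 13.6% of the exonic bases of the chromosome 4 gene, and had 233 counts over the PP libraries and 483 over the PA/OA libraries.

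Phosphorylase kinase, which switches phosphorylase on, went both ways by subunit. Of its alpha subunit genes, the muscle form Phka1 fell by 0.80 (-1.23 with library size only) and the liver form Phka2 rose by 0.46 ± 0.08 (adjusted p = 1.87e-05, edgeR). With library size only Phka2 stood at 0.02 (adjusted p = 0.804, edgeR). The beta subunit gene Phkb had -0.03 (adjusted p = 0.625, edgeR) and the gamma subunit gene Phkg2 -0.20 (adjusted p = 0.198, edgeR), and with library size only both were called lower, at -0.47 and -0.64. Within the alpha pair, Phka1 took 17.9% ± 2.91 of counts per kilobase in PP and 34.4% ± 3.25 in PA/OA (SD, n = 3 libraries each; exact permutation p = 0.1, adjusted p = 0.143). Epm2a, which codes for the glycogen phosphatase laforin, rose by 1.91 ± 0.46 (adjusted p = 0.000732, edgeR) at 67 counts or fewer in any library, and Nhlrc1, the gene of its partner malin, had 2 counts in 1 library. Rbck1, a ubiquitin ligase gene whose loss in humans lets abnormal glycogen build up, fell by 0.52, or by 0.96 with library size only.

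**Figure D5:**
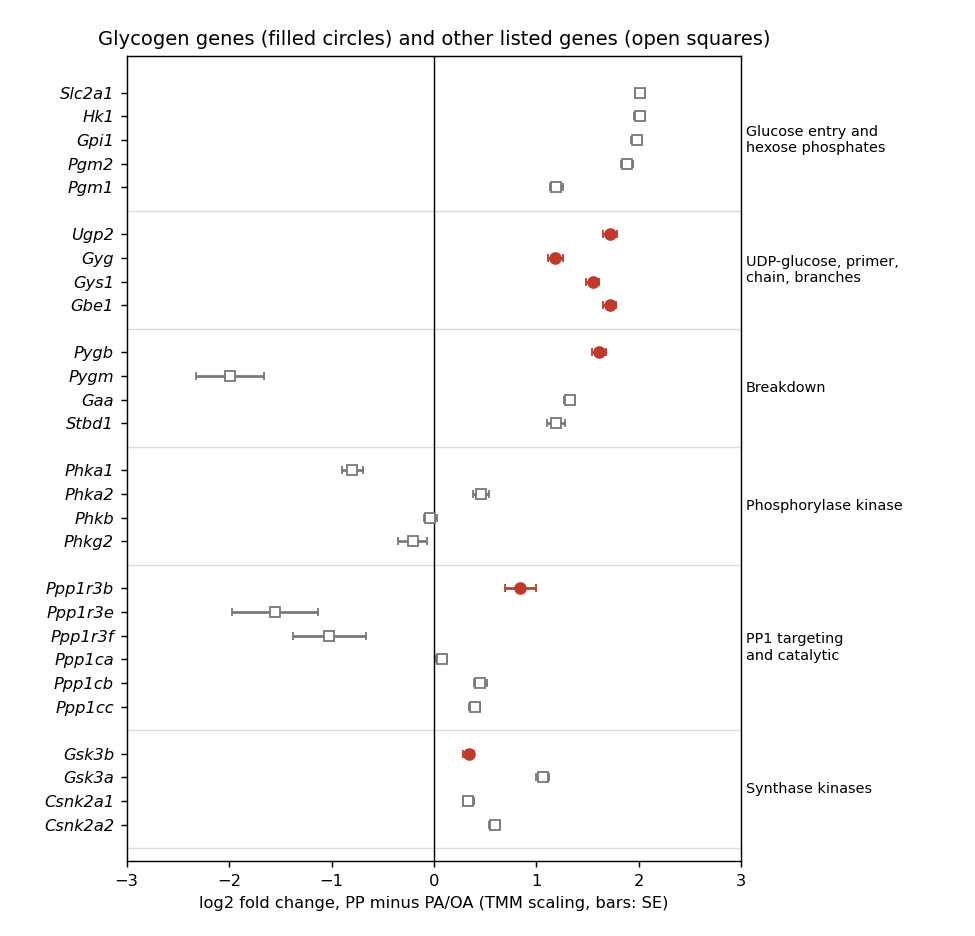
Points give log2 fold changes, PP minus PA/OA, with bars of 1 SE, ordered by role from glucose entry through synthesis and breakdown to regulators, with filled red circles for glycogen genes and open squares for other listed genes. The 4 genes of synthesis lie between 1.19 and 1.72 and Pygb at 1.61, with Pygm at -1.99. Only some genes of the lists are drawn, and of those left out Slc2a4 was at 2.63, Epm2a at 1.91 and Hk2 at -0.17.

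Slc2a1, Hk1 and Gpi1, which take up glucose and handle its phosphates, rose by about as much as the chromosome 4 phosphoglucomutase gene. Of 21 genes of glucose phosphate entry and exit, 13 were tested, of which 6 rose and 2 fell (Slc2a2 and Slc37a2), and the median was 0.14. Over all genes 35.1% were called higher and 39.9% lower. With library size only, 6 of the list rose and 6 fell. The glucose transporter gene Slc2a1 had 811 ± 16.7 CPM in PP and 201 ± 4.84 CPM in PA/OA, the hexokinase gene Hk1 had 753 ± 25.2 CPM in PP and 187 ± 7.33 CPM in PA/OA, and the glucose phosphate isomerase gene Gpi1 had 2042 ± 67.6 CPM in PP and 517 ± 26.7 CPM in PA/OA (SD, n = 3 libraries each). Their log2 fold changes were 2.01, 2.01 and 1.98, and that of Gpi1 was 1.27 with the trend removed. The other rises were those of the transporter genes Slc2a4 and Slc2a8, by 2.63 and 0.95 (0.52 for Slc2a8 with library size only), and of the hexokinase domain gene Hkdc1, by 1.73. Hkdc1 was low, at up to 88 counts a library, and its log2 fold change was 1.38 without PA/OA replicate 3 and 2.16 without PA/OA replicate 1. The liver forms of this step were nearly absent. The glucose 6-phosphatase gene G6pc had 2 counts or fewer in every library. The liver transporter gene Slc2a2 had no count in PP and 55 over the PA/OA libraries. Exact 95% Poisson intervals, for counting error only, were 0 to 3.69 in PP and 41.4 to 71.6 in PA/OA. With the PP group set at a floor of 3 counts, Slc2a2 was 16.2-fold lower in PP on the CPM scale, which is not a lower bound. Slc37a4, the glucose 6-phosphate transporter of the endoplasmic reticulum, and G6pc3, the widely expressed phosphatase, had 0.14 (adjusted p = 0.128, edgeR) and 0.13 (adjusted p = 0.299, edgeR). Both were called lower with library size only (-0.29 and -0.31), and higher without PP replicate 1 for Slc37a4 (0.22) and without PP replicate 3 for G6pc3 (0.29).

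Of 22 genes of hormone and kinase control, 19 were tested, of which 12 rose and 5 fell, and the median was 0.43. Over all genes 35.1% were called higher and 39.9% lower. With library size only, and with the trend removed, 9 of the list rose and 9 fell. The largest fall of the list was that of Inpp4b (-2.64, or -3.075 with library size only). The largest rise was that of Rps6ka1 (1.64, or 1.21 with library size only). The protein kinase A catalytic subunit gene Prkaca rose by 1.06 ± 0.07 (adjusted p = 2.45e-12, edgeR; 0.63 with library size only) and its relative Prkacb fell by 0.40 (-0.94 with the trend removed). The insulin receptor substrate gene Irs2 rose by 1.11 (0.59 with the trend removed), while Irs1 fell by 1.20, or by 0.90 without PP replicate 2 and by 1.47 without PP replicate 1. Akt1, a kinase gene of insulin signalling, fell by 0.52 (-0.96 with library size only). Akt2, the main form in liver, had 0.15 (adjusted p = 0.0620, edgeR), was called higher without PP replicate 1, PP replicate 3 or PA/OA replicate 3 (0.25 for the last), and was called lower with library size only (-0.28) and with the trend removed (-0.19). The glucagon receptor gene Gcgr had 11 counts in PP replicate 1, none in the other PP libraries and 2 in 1 PA/OA library, and was not tested.

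Genes of other reactions of UDP-glucose and related sugars went both ways. Of 13 found in the table, 12 were tested, 3 rose and 7 fell, with a median of -0.84. The background over all genes is 35.1% higher and 39.9% lower. With library size only, 2 of this list rose and 9 fell. Ugdh, whose enzyme oxidises UDP-glucose to UDP-glucuronate, rose by 1.61 ± 0.06 (adjusted p = 4.62e-16, edgeR; 1.02 with the trend removed), close to Ugp2, and the galactokinase gene Galk1 rose by 0.72 (0.24 with the trend removed). Those lower included the glycosyltransferase genes Poglut1, by -1.44, Alg5, by -0.89, and Uggt2, by -0.78 on the log2 scale. The hyaluronan synthase genes Has1 and Has3 had log2 fold changes of -5.56 and -3.12. They had 10 and 52 counts over the PP libraries, against 552 and 520 over the PA/OA libraries. The third rise was that of the glucosylceramide synthase gene Ugcg, by 0.36, and its call was lost with library size only (-0.08, adjusted p = 0.407, edgeR).

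By the smallest Euclidean distance of centred log2 CPM over the 6 libraries, the protein-coding genes whose pattern was most like that of Gbe1 were Msh6, a DNA mismatch repair gene, Pgam1, the phosphoglycerate mutase of glycolysis, and Rrm2, a ribonucleotide reductase subunit gene, with distances of 0.0643, 0.0799 and 0.107 on the log2 scale among 10308 candidates. Their log2 fold changes were 1.72, 1.72 and 1.74. With 6 libraries in 2 groups, this distance mostly ranks genes by the size of their change, so this likeness is a description only.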

How the data were processed

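Raw counts per gene, 1 column per library, were deposited as whole numbers; per the submitters' processing notes they were made with featureCounts on build mm10, and DESeq2 1.16.1 is named there without its role. The aligner, annotation release and setting for strand were not given in the sources used here. Symbols, coordinates and gene lengths were used as deposited in the same table. Of its 54532 genes, 54409 were in GENCODE M21, 53499 with the same start and end, and shared exonic bases were computed from that release. Gene lengths of the table equalled its exon unions for the genes checked.

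Tests ran in edgeR 4.0.16 under R 4.3.3: filterByExpr (15718 genes kept), TMM, and the two-sided quasi-likelihood F-test, with Benjamini-Hochberg adjustment. The SE is the fold change over the root of its F statistic. CPM are TMM-scaled. The script was tested on simulated counts. Replicates were compared pairwise, and no pair was as close as counting noise alone (halved counts, 3.16 to 5.05 chi-square units per gene), so each was counted once. Named genes are the 9 genes, genes of 4 lists and of marker lists, the 3 most like the gene with the smallest p, and overlapping genes; 1 listed symbol had no row. The planned shares were those of Pygl, Gys1, Ppp1r3b and Ppp1r3c, and those of Pygb and Pygm were not in the plan. Shares within the Gsk3 and Phka pairs and those of Ppp1r3e and Ppp1r3f were added after values were seen. The genes, lists and alternatives were chosen with earlier results of these data known. Alternatives used DESeq2 1.42.0 and limma 3.58.1 (voom), other scalings and filters, halved counts, a replicate block, protein-coding genes, each library left out, and a lowess trend (span 0.4) removed. Protein sequences were not used here, and some genes of the lists are counted but not reported by name.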

Additional observations from a re-analysis of the deposited data

How the results depend on the processing

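The 7 calls of glycogen genes held, all higher in PP, with DESeq2's size factors, with no filter or a minimum of 1 CPM in 3 libraries, with DESeq2 and limma-voom, with protein-coding genes only, with halved counts and without each of the 6 libraries. With library size only, upper-quartile scaling or the trend with abundance removed, 6 held and Gsk3b was not called, at -0.10, 0.10 and -0.078 on the log2 scale in that order; the cause was not tested. With library size only, 3235 genes were higher in PP, against 5510 with TMM, and of the other glycogen genes 8 were higher and 13 lower, against 14 and 7. With upper-quartile scaling 12 of those were lower. With upper-quartile scaling the log2 fold change of Gyg was 0.95 and that of Ppp1r3b 0.60; with library size only they were 0.75 and 0.41. The share of Ppp1r3c within its family, PP minus PA/OA, was -1.19 percentage points and ran from -2.03 to 0.499 when 1 library was left out, the last without PA/OA replicate 2, which held 8 of its 10 counts. With replicate number as a replicate block, 5427 genes were higher and 6088 lower, and all 7 glycogen calls held. The numbers pair no samples by the labels, and deviations of same-numbered libraries had correlations of 0.00517, 0.00304 and -0.0234. Counts limit what can be said of Pygl, Ppp1r3c, Epm2a, Ppp1r3e and Ppp1r3f.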
